A study of Mus musculus with 4 samples.

Results

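The SLC38 genes encode sodium-coupled carriers of glutamine and other neutral amino acids, and 10 of them, Slc38a1 to Slc38a10, were examined for binding of the homeodomain transcription factor NKX2.2. The members are a set of 10 among 21883 protein-coding genes, chosen with earlier results of these data known. For each, the summits of NKX2.2 peaks lying in the gene, or within 10 and 50 kb of it, were located. The binding data come from ChIP-seq, the sequencing of DNA recovered with an antibody to a chromatin-bound protein, in cells of alphaTC6, a transformed mouse cell line that models the glucagon-secreting alpha cell of the pancreatic islet. The series has 4 wild-type samples, 2 immunoprecipitated with an antibody to NKX2.2 and 2 of input DNA, which was not enriched. All 4 are of this line, so they speak for the line and not for alpha cells in the islet. The list holds no expression values, so the labelled cell type was not checked against its markers.

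The carriers fall into groups by where they work and what they move. Slc38a1, Slc38a2 and Slc38a4 encode system A carriers of small neutral amino acids at the cell surface. Slc38a3 and Slc38a5 encode system N carriers, which exchange glutamine, asparagine and histidine for protons along with sodium. The proteins of Slc38a7 and Slc38a9 sit on the lysosome, where the latter reports amino acids to the growth kinase complex mTORC1. Glucagon from alpha cells drives amino acid use by the liver. When its signal is blocked the amino acids in blood rise, alpha cells multiply, and mouse alpha cells take up amino acids through Slc38a5. NKX2.2 is required for the formation and identity of several islet endocrine cell types.

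A single list of 7384 peak summits was available for the whole series. Each summit carries a score, the authors' own value for the peak, taken as −log10 of its q-value. No label or header names the unit, so the q-values given below rest on this reading. A score of 10 thus stands for a smaller q than a score of 5, and the score is used only to rank peaks within the list. The scores ran from 2.03 to 1648 with a median of 13.7, and the middle of the list lay between 7.98 and 27.7 (lower and upper quartiles). The list gives no value per library, so read depth is unknown, no result has a replicate error, and no difference below was tested. A gene without a summit is one where no peak was called.

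Summits were found near most SLC38 genes, but those closest to the genes mostly had low scores. Of the 10 members, 6 had a summit in the gene or within 10 kb, against 25.8% of all protein-coding genes. These were Slc38a4, Slc38a5, Slc38a6, Slc38a7, Slc38a8 and Slc38a10, with 1 summit each. Within 50 kb, 9 members had a summit, against 43.8% of all genes, and these members had 10 distinct summits between them. Inside the gene itself, 4 members had one, against 13.4% of all genes, and the same number had one within 1 kb, against 19.2%. Within 100 kb all 10 members had one, against 55.3%. Slc38a11, an SLC38 gene that is not among the 10, had no summit at any of these distances. The nearest summit to Slc38a9 lay 62.1 kb away. At the limits of the windows, Slc38a5 was just inside 10 kb, at 8.85 kb, and Slc38a3 was next, at 13.9 kb. The outermost summit counted within 50 kb was one of Slc38a10, at 38.8 kb.

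**Figure D1:**
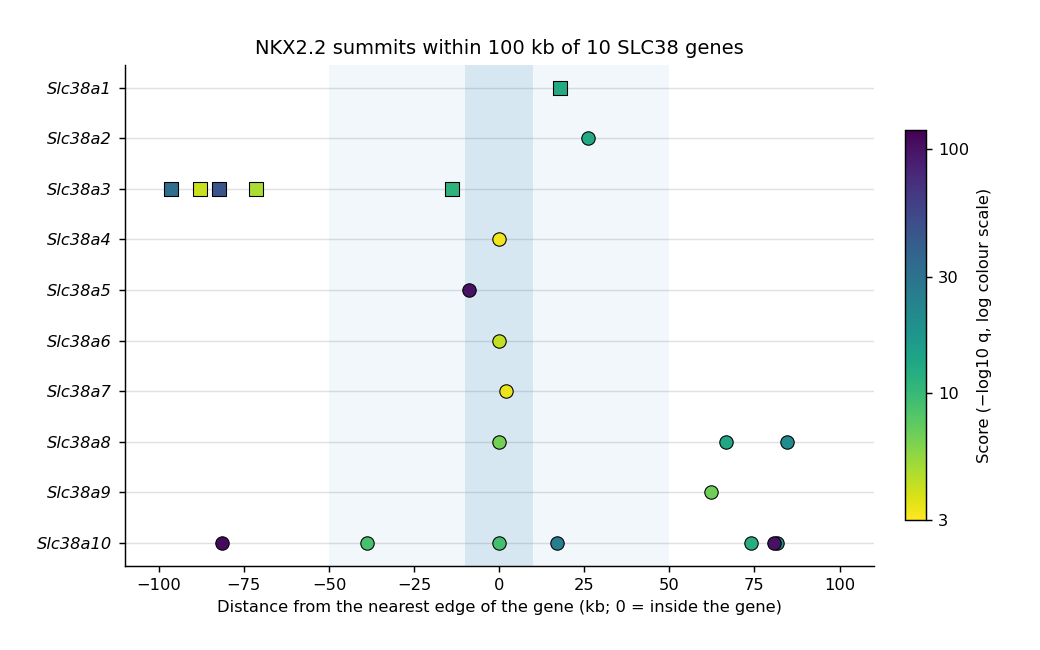
Each point is a summit within 100 kb of an SLC38 gene, placed by its distance in kb from the nearest gene edge (0, inside; negative, upstream, positive, downstream) and coloured by its score on a log scale; squares mark genes whose strand is not in the table used, where negative means lower coordinates. The bands mark 10 and 50 kb, and the only dark point inside the 10 kb band is that of Slc38a5.

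The picture changed when weak peaks were left out. With scores of at least 5 only, 3 members had a summit within 10 kb, against 23.7% of all genes, and 6 had one within 50 kb, against 41.2%. With scores of at least 10 only, 1 of the 10 members, Slc38a5, kept a summit within 10 kb, against 18.2% of all genes. No member had one of that score inside the gene, against 9.23% of all genes, or within 1 kb, against 13.2%. Within 50 kb, 5 members had a summit of at least 10, against 33.7%, and within 100 kb 6 had one, against 45.4%. Among them, Slc38a1 and Slc38a2 were counted through the same summit. The shares of all genes also let a summit count for several genes. Of the 6 summits within 10 kb, 5 scored under the list's median. The median over the 6 members of the highest score within 10 kb was 5.40, and over the 5650 protein-coding genes with a summit at that distance it was 16.0. Members with a summit within 10 kb thus made up a larger share than the background when every peak counted, and a smaller one at scores of at least 10; with 10 genes, that smaller share is 1 gene.

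**Figure D2:**
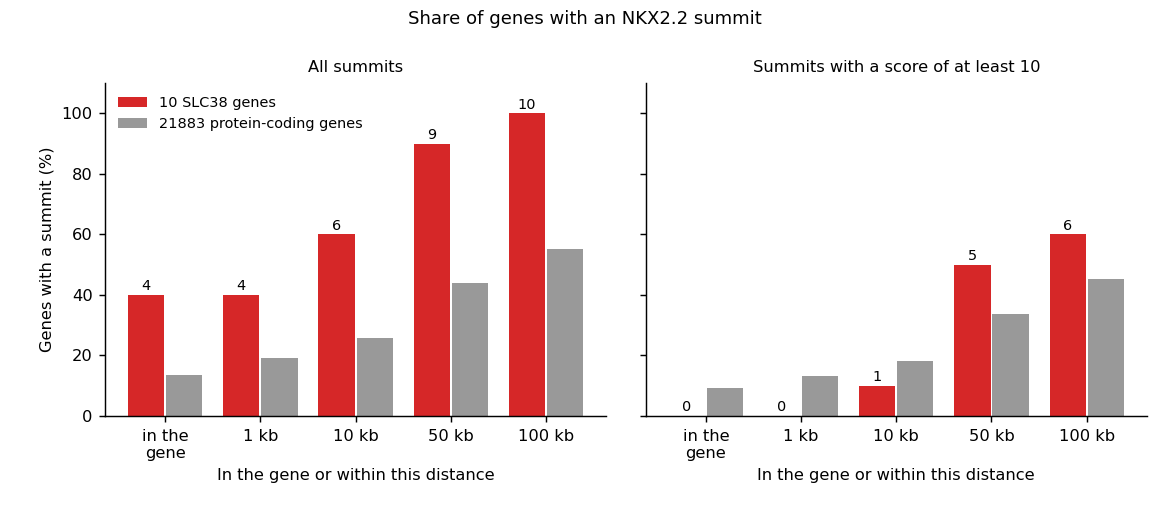
Bars give the percent of genes with a summit in the gene or within the stated distance, for the 10 SLC38 genes (red, with the number of genes above the bar) and for 21883 protein-coding genes (grey), using all summits (left) or those scoring at least 10 (right). At 10 kb the red bar falls from 6 genes to 1, while the grey bar falls from 25.8% to 18.2%.

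Gene length bears on such counts, because a longer gene offers a wider target. The members ran from 8.80 kb (Slc38a5) to 82.6 kb (Slc38a9), and the median protein-coding gene was 17.2 kb. Among genes of 10 to 50 kb, 3 of 5 members had a summit within 10 kb, against 27.2% of all genes of that length. Above 50 kb, 2 of 4 members had one, against 36.9%. Slc38a5 is the only member under 10 kb, a class in which 17.3% of genes had a summit. The part of gene length in the family's count was not tested.

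The highest-scoring summit within 50 kb of an SLC38 gene was that near Slc38a5 (gene ID 209837), the system N carrier linked to the alpha cell response to amino acids. The gene lies at chrX:8271381-8280179 on the plus strand in GRCm38. Its summit, at position 8262536 of the X chromosome, scored 101, for a q-value of 2.82e-101, and ranked 375 of 7384. It lay 8.85 kb upstream of the gene's start site, outside the gene. A score this high within 10 kb was reached at 358 of 21883 protein-coding genes, 1.64%. On the X chromosome, where 4.87% of 966 protein-coding genes had a summit within 10 kb, this was the fifth highest of 62 summits.

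The Slc38a5 summit was the only one within 100 kb of the gene. Slc38a1, Slc38a2, Slc38a4, Slc38a6, Slc38a7 and Slc38a9 also had 1 summit each at that distance. Within 100, 250 and 500 kb of Slc38a5 lay 1, 2 and 4 summits, the same as the medians over all protein-coding genes. From the Slc38a5 summit, the next on the lower side was 188 kb away and that on the higher side 2195 kb away. No protein-coding gene other than Slc38a5 had its 10 kb window over it. The nearest other gene, Ftsj1, which encodes a transfer RNA methyltransferase, is transcribed away from Slc38a5. Its start site was 10.1 kb from the summit, on the other side. The summit thus fell between a pair of divergent start sites 19.0 kb apart, somewhat nearer to that of Slc38a5, and distance alone does not assign it to either gene.

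The promoter window of Slc38a5 (chrX:8271131-8271430, plus strand, GRCm38.p6, from RefSeq, 250 bases before to 50 after the start site) is shown because the family's highest score lies upstream of it, although no summit fell inside. It was searched on both strands for the NK2 core AAGTG, its longer form TNAAGTG, which contains the core, the amino acid response element TGATGNAA and the GC box GGGCGG. The capitals mark the GC box, which matched at 2 places.
Slc38a5: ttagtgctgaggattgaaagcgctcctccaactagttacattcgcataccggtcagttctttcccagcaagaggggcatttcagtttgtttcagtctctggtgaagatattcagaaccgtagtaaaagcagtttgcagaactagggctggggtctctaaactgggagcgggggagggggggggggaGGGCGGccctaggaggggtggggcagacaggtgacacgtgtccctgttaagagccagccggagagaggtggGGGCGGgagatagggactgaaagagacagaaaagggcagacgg
Neither NK2 form nor the amino acid response element was found in these letters. The sequence under the summit itself was not used here.

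The other system N gene, Slc38a3 (gene ID 76257, chr9:107651154-107668968), had no summit within 10 kb. The nearest, at position 107637244 of chromosome 9, lay 13.9 kb away with a score of 11.1 and rank 4438. That summit was closer to Gnai2, which encodes an inhibitory G protein alpha subunit, at 1.85 kb. A further 4 summits lay between 71.4 and 96.5 kb from Slc38a3, with scores of 4.81, 45.7, 4.11 and 32.1 in order of distance. Each of these was inside another gene, Hyal1, Hyal2, Tusc2 or Rassf1. The nearest summit of Slc38a3 was thus next to a neighbour. For the summit of Slc38a5, the nearest other protein-coding gene, Ftsj1, was just outside 10 kb, at 10.1 kb.

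The 3 system A genes lie on chromosome 15, where Slc38a1 and Slc38a2 are 44.0 kb apart and Slc38a4 follows after 295 kb. Slc38a1 (gene ID 105727, chr15:96571418-96643438) and Slc38a2 (gene ID 67760, chr15:96687392-96699728, minus strand) had no summit within 10 kb. They shared 1 summit between them, at position 96661287, with a score of 12.9 and rank 3909. It lay 17.8 kb from Slc38a1 and 26.1 kb from Slc38a2, past the end of Slc38a2 and 38.4 kb from its start site. Counted for the nearest protein-coding gene only, it belongs to Slc38a1. The small nuclear RNA gene Gm22045 was closer to it, at 10506 bases. The next summits were 200.2 kb and 351 kb away, so the shared summit was the only one within 100 kb of either gene.

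**Figure D3:**
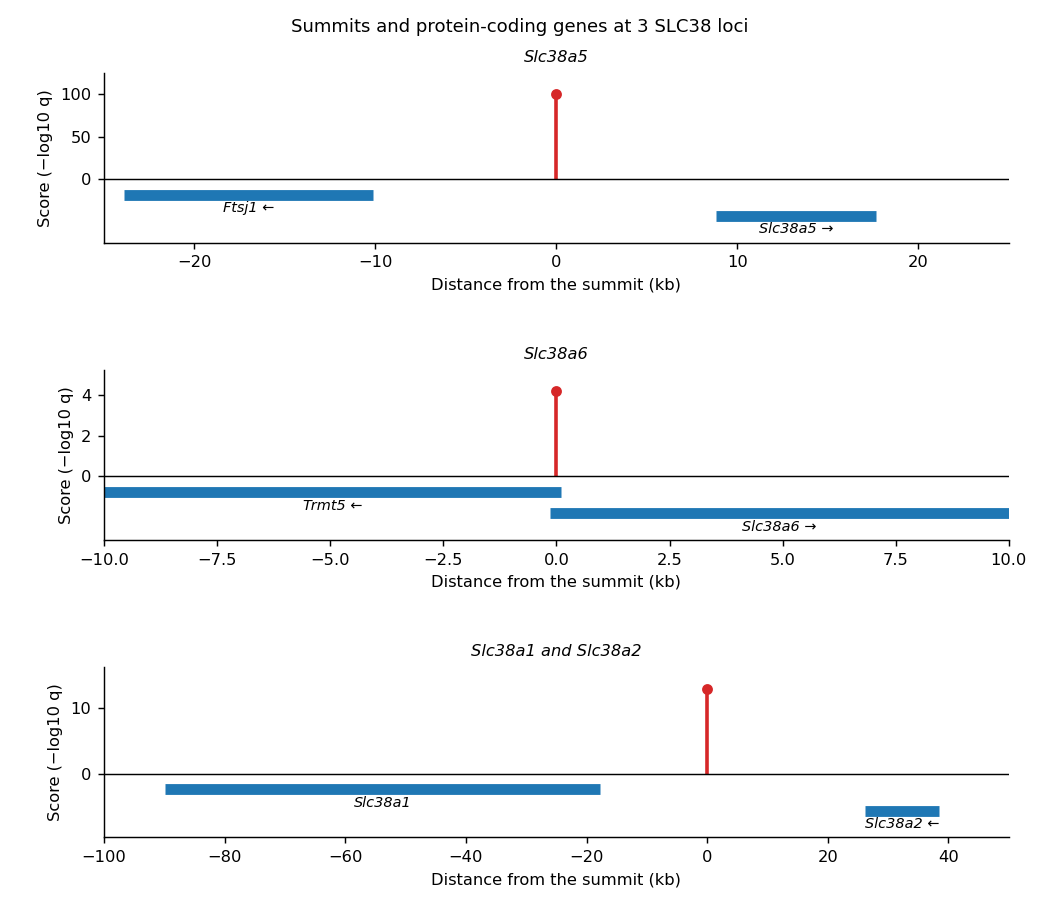
Summits (red, height gives the score) and protein-coding genes (blue, arrows give the direction of transcription where known) are drawn by distance in kb from the summit at the Slc38a5, Slc38a6 and Slc38a1 and Slc38a2 loci. The summits lie between the divergent genes Ftsj1 and Slc38a5, at the overlapping starts of Trmt5 and Slc38a6, and in the gap between Slc38a1 and Slc38a2; the score axes differ.

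Slc38a4 (gene ID 69354, chr15:96994816-97055956, minus strand) had 1 summit, at base 97012002, which lies within the gene. Its score of 3.25, for a q-value of 0.000568, ranked 7195 of 7384, the lowest of the summits within 50 kb of a member. It lay 8.36 kb past the nearest of 3 annotated start sites, and the closest other protein-coding gene, Amigo2, was 232 kb away. No other protein-coding gene stood near this summit, and its score was among the lowest of the list.

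The promoter windows were also searched for the NK2 letters. The core AAGTG was found in 3 of the 10 windows of the 8 members with a promoter entry, in 2 of the windows of Slc38a4 and that of Slc38a10, and in 46.4% of all 32851 promoter windows. The longer TNAAGTG was found in 1 window, of Slc38a4, and in 11.5% of all windows. The first 120 bases of that window (chr15:97031344-97031463, minus strand, GRCm38.p6, from RefSeq) are shown for this match, the first of the 2 runs in capitals, which mark AAGTG.
Slc38a4: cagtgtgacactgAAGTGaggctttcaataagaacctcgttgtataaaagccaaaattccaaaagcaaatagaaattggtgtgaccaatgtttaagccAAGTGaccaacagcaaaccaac
No summit fell in this window. A match is only a description of the letters.

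The lysosomal carriers had 1 low-scoring summit within 50 kb between them. Slc38a7 (gene ID 234595, chr8:95835920-95853577, minus strand), an exporter of glutamine from the lysosome, had 1 summit at position 95833854, which lay 2.07 kb past the end of the gene and 19.6 kb from its start site. Its score was 3.37, for a q-value of 0.000427, with rank 7170. It lay inside Gm31805, a long noncoding RNA gene, and the 10 kb window of Sap18b, 7.70 kb away, also held it. The next summit on the higher side was 4642 kb away.

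Slc38a9 (gene ID 268706, chr13:112656189-112738752, plus strand), the arginine-responsive partner of the Rag GTPases, is the longest member and had no summit within 50 kb. The nearest, at base 112800877 of that chromosome, scored 6.73 and was inside Plpp1, a lipid phosphatase gene, and 62.1 kb past the end of Slc38a9. In its class of genes over 50 kb long, 50.1% had a summit within 50 kb.

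The remaining carriers, Slc38a6, Slc38a8 and Slc38a10, each had a summit inside the gene. Slc38a6 (gene ID 625098, chr12:73286739-73361998, plus strand), a less well characterised member, was the only one with a summit in a promoter window. Of all 32851 windows, 4.94% held a summit. The Slc38a6 summit, at position 73286879 of chromosome 12, lay 31 bases past the start site and scored 4.20, for a q-value of 6.28e-05 and rank 6955. This start site is 137 bases from that of Trmt5, a transfer RNA methyltransferase gene transcribed the other way. The summit lay 168 bases upstream of the Trmt5 start site in the promoter table. It was nonetheless inside the annotated Trmt5 gene too (chr12:73268515-73286975, minus strand), which extends beyond that start site. The promoter windows of these genes overlap by 236 bases, so this summit cannot be assigned to either gene alone.

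The window of Slc38a6 (chr12:73286598-73286897, plus strand, GRCm38.p6, from RefSeq) is shown because it holds the summit, at base 282 from its 5′ end. The capitals mark TGACGTCA, the full cyclic AMP response element, a motif that was looked for only after this sequence had been read.
Slc38a6: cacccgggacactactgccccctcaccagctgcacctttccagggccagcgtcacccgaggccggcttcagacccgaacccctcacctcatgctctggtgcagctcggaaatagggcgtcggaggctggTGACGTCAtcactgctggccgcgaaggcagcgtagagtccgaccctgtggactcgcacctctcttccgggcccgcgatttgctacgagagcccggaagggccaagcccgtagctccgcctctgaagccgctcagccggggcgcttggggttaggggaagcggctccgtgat
The element began 121 bases before the Slc38a6 start site. It was found in 1.79% of all promoter windows and in 4.86% of the 1624 windows with a summit, and many windows overlap or share a gene. Neither NK2 form, the amino acid response element nor the GC box was found in this window. Of the 1624 windows with a summit, 45.1% held AAGTG, against 46.4% of all windows, and 70.9% held the GC box, against 35.7%.

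Slc38a10 (gene ID 72055, chr11:120103951-120151351, minus strand), reported to carry glutamine in neurons, had the most summits of the family, 3 within 50 kb, of which 1 was inside the gene. The one inside, at base 120150055, lay 1.30 kb past the start site and had a score of 8.97 and rank 5209. The long noncoding RNA gene Gm11769 was 352 bases from it, and the nearest other protein-coding gene, Ndufaf8, was 49.6 kb away. Of the others, the summit at position 120086988 scored 25.6 with rank 1996. It lay 17.0 kb past the end of Slc38a10 and only 161 bases upstream of the start site of Cep131, a centrosome gene, and the 10 kb window of Tepsin also held it. The summit at position 120190117 lay 38.8 kb upstream of Slc38a10, 261 bases from the long noncoding RNA gene 2810410L24Rik, and scored 8.82. The nearest other protein-coding gene to it was Bahcc1, at 42.8 kb. Of the summits within 50 kb, the highest thus lay at the start of a neighbour.

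The surroundings of Slc38a10 were dense in summits. Within 500 kb lay 18, against a median of 4 over all protein-coding genes, and between 3 and 12 for the other members. Within 100 kb lay 7. The 2 highest of these scored 109, at 13 bases from Bahcc1, and 101, inside Aatk, at 81.5 and 80.9 kb from Slc38a10.

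The promoter window of Slc38a10 (chr11:120151302-120151601, minus strand, GRCm38.p6, from RefSeq) is shown because the summit inside the gene lay closest to a start site after that of Slc38a6. The capitals mark the GC box, here read as CCGCCC on the other strand, at 3 places, and the NK2 core, read as CACTT, at base 3 after the start site.
Slc38a10: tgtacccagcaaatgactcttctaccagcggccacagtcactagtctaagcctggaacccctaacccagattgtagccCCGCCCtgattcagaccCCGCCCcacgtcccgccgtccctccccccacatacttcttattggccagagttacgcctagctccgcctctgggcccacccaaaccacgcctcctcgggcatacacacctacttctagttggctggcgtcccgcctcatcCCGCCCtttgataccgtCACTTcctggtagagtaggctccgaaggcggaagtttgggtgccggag
The GC box was found in 6 of the 10 member windows, from 5 genes, and in 35.7% of all windows. The amino acid response element was found in 0 of the 10 windows and in 3.97% of all windows. That of Slc38a2 is one of these 10, and its first intron was not searched.

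Slc38a8 (gene ID 234788, chr8:119479574-119501698, minus strand), a carrier known mainly from neurons and retina, had 1 summit within the gene body. It was placed at base 119490926, 10.8 kb past the start site, and its score of 6.60 gave it rank 6048. The nearest other gene, Mbtps1, was 17.2 kb away, so no other protein-coding gene had it within 10 kb. Another 2 summits, at 66.7 and 84.7 kb, were inside Mlycd and scored 13.3 and 20.5.

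Ordered by the score of the highest summit within 10 kb, the members ran from Slc38a5 (101) through Slc38a10 (8.97), Slc38a8 (6.60), Slc38a6 (4.20) and Slc38a7 (3.37) to Slc38a4 (3.25). The gap below Slc38a5 was wide, from rank 375 to rank 5209. With no value per library, whether neighbours further down this order differ cannot be told.

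**Figure D4:**
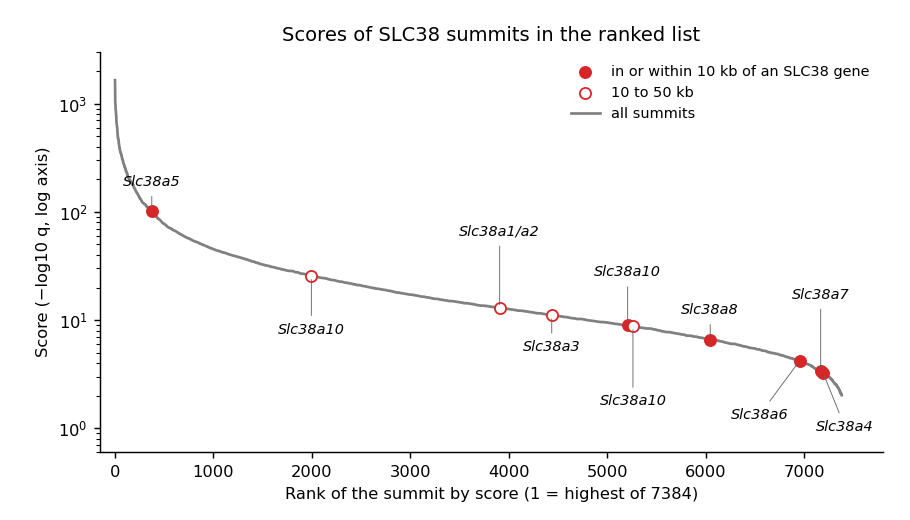
All 7384 summits are drawn as a grey curve of score (log axis) against rank, with the 10 SLC38 summits within 50 kb as points, filled where they lie in or within 10 kb of a member. Slc38a5 sits at rank 375, and the other filled points lie at rank 5209 or beyond.

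Other genes of amino acid handling were counted in the same way. Of 29 other cell surface amino acid transporter genes, 8 had a summit within 10 kb (27.6%, against 25.8% of all genes) and 12 within 50 kb (41.4%, against 43.8%), shares close to the background. The highest were in Slc3a1 and Slc3a2, which encode the heavy chains of heteromeric carriers, and in Slc43a2, a carrier of large neutral amino acids, with scores of 29.2, 24.6 and 22.7. No gene of the 29 had a summit within 10 kb that reached the score of 101 near Slc38a5. Only 1.64% of all protein-coding genes had one, so few were to be looked for among 29.

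Of 16 genes of glutamine and glutamate metabolism, 7 had a summit within 10 kb (43.8%, against 25.8% of all genes) and 11 within 50 kb (68.8%, against 43.8%). The highest lay in Gpt, an alanine aminotransferase gene (score 43.6), and 2.08 kb from Cad, the gene of the enzyme that starts pyrimidine synthesis from glutamine (41.6). Gpt2, the gene of the mitochondrial alanine aminotransferase, had a summit 121 bases from the gene with a score of 16.5.

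Of 35 genes of amino acid sensing and mTORC1, 18 had a summit within 10 kb (51.4%, against 25.8% of all genes) and 25 within 50 kb (71.4%, against 43.8%). Rptor, which encodes the scaffold subunit of mTORC1, had 2 summits, of which the higher, at base 119863801 within the gene, scored 339.5 and ranked 65. Ddit4, the gene of a stress-induced mTORC1 inhibitor, had 3, the highest 5.79 kb away with a score of 183. Fnip2, which encodes a partner of folliculin, had 3, the highest inside the gene with a score of 62.8. A highest summit within 10 kb at or above the overall median score of 13.7 was found for 1 of the 10 SLC38 members, 5 of the 29 transporter genes, 3 of the 16 metabolism genes and 12 of the 35 sensing genes, against 14.6% of all protein-coding genes. Differences between the lists were not tested.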

How the data were processed

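NKX2.2 occupancy was measured by ChIP-seq in alphaTC6 cells, with 2 ChIP and 2 input samples grouped by their titles. Per the labels' design text, peaks were called with MACS2, and the submitters' processing notes also name FastQC, Bowtie2 and mm10, which is GRCm38. Versions, filters and pooling of replicates are not given in the sources used here. The deposited list holds 1 summit per peak and a score, taken as the −log10 q-value that MACS2 writes; no label or header names the unit. The lowest score, 2.03, lies just above what a q-value of 0.01 gives.

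Summits were placed by start plus 1 on the RefSeq genes of GRCm38.p6, and 7380 lay on assembled chromosomes. A gene counted when a summit lay in it or within the stated distance of it, and a summit could count for several genes. Start sites and strands came from the RefSeq promoter table, which matched 8 of 10 members; Slc38a1 and Slc38a3 had no entry. Exons, introns and UTRs were not distinguished. The planned comparison of protein sequences was not run. Shares over all protein-coding genes are the background, and no test was made.

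The members, gene lists and motifs were chosen with earlier results of these data known. All members are named, with the nearest protein-coding gene and those within 10 kb of each member summit within 50 kb, and at most 3 genes per list, by highest score within 10 kb. Noncoding genes next to summits were named after their values were seen. Alternatives were the score minimum (5, 10), distance, merging within 500 bp, nearest (protein-coding) gene only and all annotated genes. The placement code was tested on simulated data. Python 3.11.15, numpy 2.4.6, pandas 2.3.3 and matplotlib 3.10.9 were used.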

Additional observations from a re-analysis of the deposited data

How the results depend on the processing

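No paired analysis was possible because replicates are not separated in the summit list, and leaving out single replicates was likewise not run. Of 10 members, 6 had a summit within 10 kb. That number was 3 at a score minimum of 5 and 1 at a minimum of 10, since 5 of the 6 summits score under 10, and 10 within 100 kb. It was 4 in the gene body and within 1 kb, 9 within 50 kb, and 6 with merging or the nearest gene only. The number within 50 kb was 9, and it was 5 at a score minimum of 10, 6 at a minimum of 5, 7 with the nearest gene only and 9 with merging. No share over all protein-coding genes was computed with the nearest gene only. The shares given for all genes let a summit count for several genes, so they are no background for those counts. The share of genes with a summit within 10 kb was 25.8% and 18.2% to 25.8% under the score minimums and merging, but 16.7% over all annotated genes, and the cause was not tested. Over the alternatives, 80 counts at single members were computed: 58 differed by at most 1.5 times and 22 by more, all through the score minimum or the distance. Slc38a1, Slc38a2, Slc38a3 and Slc38a9 had no summit within 10 kb. For them the score minimums, merging, shorter distances and nearest gene only could not change the count. The 58 are therefore no measure of stability. Since depth is unknown, a gene with no call may still have been bound.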

Other observations

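Slc38a11, the SLC38 gene outside the 10 examined, had no summit within 500 kb. The nearest, with a score of 9.61, lay 605 kb from the gene on chromosome 2. Of all 21883 protein-coding genes, 4104 had none within 500 kb.

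Some genes of amino acid handling lie on the same stretch of chromosome as SLC38 genes. Got2, which encodes the mitochondrial aspartate aminotransferase, lies 10.6 kb from Slc38a7, so that their windows overlap. Nprl2, a gene of the complex that restrains mTORC1, lies 105 kb from Slc38a3. The summit inside Rassf1, with a score of 32.1, is in the 10 kb window of Nprl2 and in the 100 kb window of Slc38a3. Rptor, with the highest score of the sensing list, lies 204 kb from Slc38a10, in the same summit-rich stretch of chromosome 11.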
